A study of Mus musculus with 24 samples.

Results

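The 10 enzymes of isoleucine and valine breakdown followed here were measured in mouse hypothalamus. They are Acadsb, Acad8, Hibch, Hibadh, Hsd17b10, Aldh6a1, Pcca, Pccb, Mut and Mcee. They were taken by symbol from the pathway, and 10 of 10 were found among 18777 gene symbols. All 10 were among the 13806 genes that were tested, those averaging 1 FPKM or more (FPKM are fragments scaled to transcript length and to the fragments mapped in the library). RNA was sequenced from 24 C57BL6 mice killed at 15 months of age, which had been on their diets since 12 weeks of age. The diets BCAA20, BCAA50, BCAA100 and BCAA200 contained the branched-chain amino acids (BCAA) at 20, 50, 100 and 200% of the standard content. All diets had protein at 18.8%, carbohydrate at 63.4% and fat at 17.8%, and 14.4 MJ per kg. Each was eaten by 3 females and 3 males. BCAA100 is the group that the sample titles call Chow.

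Isoleucine and valine are essential amino acids that share their first steps with leucine, a transamination and an oxidative decarboxylation, and then part ways inside the mitochondrion. Valine is carried to propionyl-CoA through an intermediate that leaves its coenzyme A before it is oxidised, and isoleucine is split into acetyl-CoA and propionyl-CoA. Both routes end in the carboxylation of propionyl-CoA and its conversion, through methylmalonyl-CoA, to succinyl-CoA, which enters the tricarboxylic acid (TCA) cycle. In the brain the BCAA also donate nitrogen for glutamate, so their breakdown touches transmitter supply as well as energy.

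Some libraries stood apart. BCAA20 male replicate 6 had 154 FPKM of Xist, the transcript of the inactive X chromosome, and a Y-linked sum of 0.006 FPKM, against its male label. Slc17a7, the vesicular glutamate transporter of cortex and hippocampus, was at 3.99 FPKM in BCAA100 male replicate 5, 12.6 FPKM in BCAA100 male replicate 6 and 6.23 FPKM in BCAA50 female replicate 1, against at least 105.7 FPKM in the other 21 libraries. In BCAA100 male replicate 6 the summed hypothalamic markers were at 6.095 FPKM, and the oligodendrocyte markers at 3922 FPKM, the highest of the 24 libraries. The other 23 libraries had at least 103.6 FPKM of the hypothalamic markers. The highest hypothalamic sums were in the other libraries with little Slc17a7, BCAA100 male replicate 5 (1018.9 FPKM) and BCAA50 female replicate 1 (1005.9 FPKM). Little Slc17a7 thus marks little cortex and hippocampus RNA and not, by itself, little hypothalamus. BCAA50 male replicate 6 had the highest choroid plexus marker sum and is described with Pcca. Values without the 4 libraries with a sex mismatch or little Slc17a7 are given beside the results that turn on them. Lane 2 held the 6 BCAA100 libraries and lane 1 the remaining 18, so diet and lane cannot be told apart in any comparison with BCAA100. In whole tissue, fewer cells of a type and less RNA per cell cannot be told apart.

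All 10 enzymes were present in every library, and they held a steady order of levels. FPKM is per length of transcript, so levels can be set beside each other between genes. Mean levels over the 24 libraries were 26.8 FPKM for Hibadh, 20.7 for Hsd17b10, 19.1 for Pccb, 17.1 for Mcee, 14.3 for Aldh6a1, 14.0 for Acadsb, 9.47 for Mut, 8.33 for Pcca, 7.53 for Acad8 and 4.83 for Hibch. Hibadh was above Hsd17b10 in 23 of 24 libraries, Acadsb above Mut in 24 and Acad8 above Hibch in 24. Aldh6a1 exceeded Acadsb in 15 libraries, Mut exceeded Pcca in 16 and Pcca exceeded Acad8 in 17, so the order of these neighbours was not settled within single animals. The sum of the 10 enzymes averaged 142.3 ± 6.32 FPKM in BCAA20, 140.8 ± 11.1 in BCAA50, 147.1 ± 10.4 in BCAA100 and 138.9 ± 8.13 in BCAA200 (SD, n = 6 each). These sums overlapped between all diets.

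Most of the enzymes varied little between animals. The coefficient of variation over 24 libraries was 8.24% for Aldh6a1, 8.50% for Pccb, 8.91% for Mut, 9.95% for Hsd17b10, 11.5% for Hibadh, 11.65% for Acadsb and 13.1% for Mcee. It was larger for Acad8 (18.1%), Pcca (19.3%) and above all Hibch (35.2%). The median was 11.6% over the 10 enzymes and 17.7% over all genes tested. Of all genes tested, 84.04% varied less than Hibch and 6.42% less than Aldh6a1. The genes tested reach down to a mean of 1 FPKM. Genes of a matching level were not set apart, so the part of level in these ranks was not tested.

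**Figure D1:**
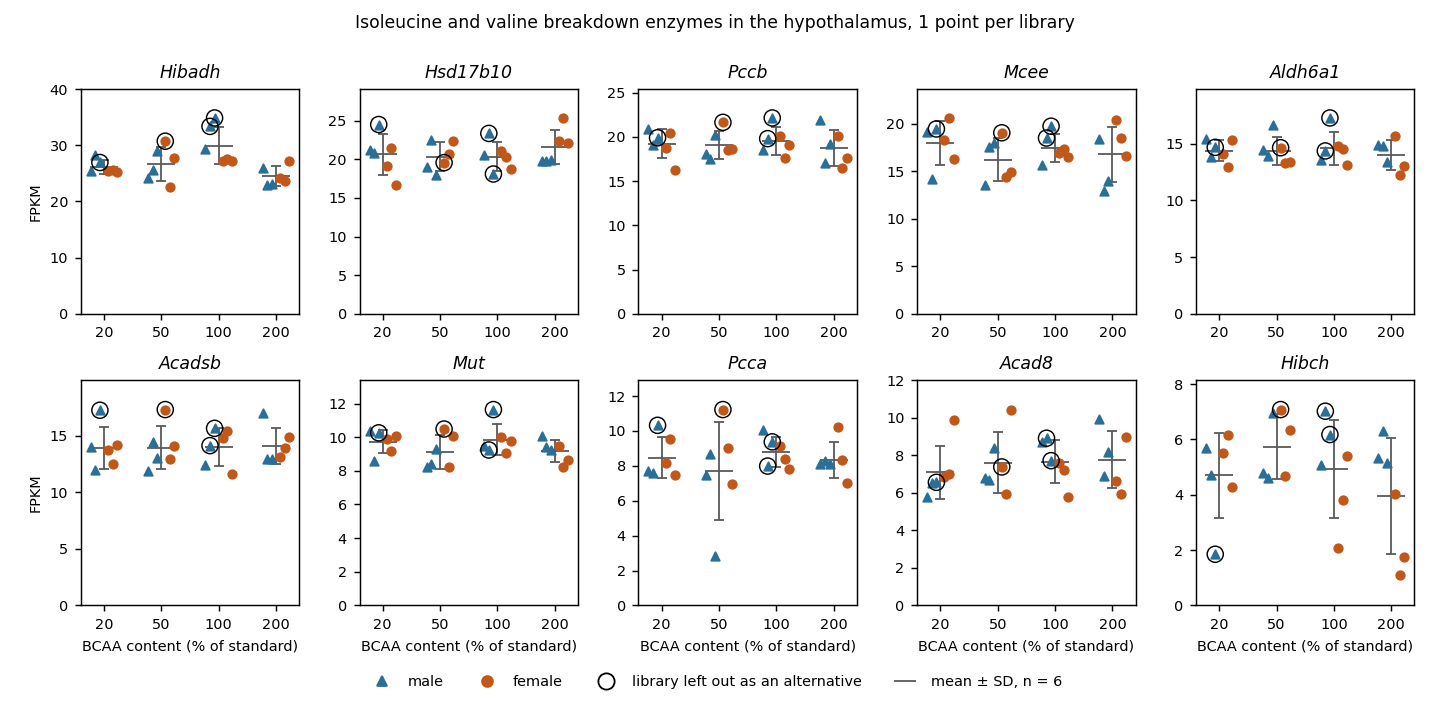
Level of each enzyme in FPKM on a linear axis from 0, by BCAA content of the diet, 1 point per library (triangles males, circles females), with the mean and SD of 6 libraries in grey. Rings mark the 4 libraries left out in an alternative analysis. BCAA100 lies highest for Hibadh (29.95 FPKM on average), and single libraries fall far below the rest in Hibch (down to 1.082 FPKM) and Pcca (2.819 FPKM).

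No enzyme passed an adjusted p of 0.05 (limma, two-sided, Benjamini-Hochberg over all genes tested) in any comparison of diets, in the trend over content, on intake or between the sexes. Of all genes tested, the share called at that threshold was 0% in BCAA200 against BCAA20, BCAA200 against BCAA50, BCAA50 against BCAA20, BCAA20 against BCAA100, BCAA50 against BCAA100, the trend, the sex by diet test and the 3 slopes on intake. It was 0.0145% in BCAA200 against BCAA100 and 0.0652% in males against females, and none of those genes was one of the enzymes. The members' values are therefore given as levels and as fold changes with their intervals, which state what size of change the data still allow.

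Within lane 1 the widest contrast of content was BCAA200 against BCAA20, and none of the 10 enzymes reached even an unadjusted p of 0.05, against 2.89% of all genes tested. The log2 changes ran between -0.33 for Hibch and 0.12 for Acad8, with a median of -0.04 over the enzymes and -0.01 over all genes. The median standard error was 0.0915 for the enzymes and 0.132 for all genes. For Hibadh the ratio of BCAA200 to BCAA20 was 0.937 (95% interval 0.845 to 1.04), and for Hsd17b10 1.046 (0.933 to 1.17). For Hibch the interval was wide, with a ratio of 0.794 (0.543 to 1.16). In BCAA50 against BCAA20 none of 10 enzymes had an unadjusted p under 0.05, against 2.68% of all genes. In BCAA200 against BCAA50 it was 1 of 10, Hibch, against 2.52%. The slope per doubling of content over the 3 diets of lane 1 was between -0.12 (Hibch) and 0.03 (Acad8) on the log2 scale, with 0 of 10 under an unadjusted p of 0.05, against 2.83% of all genes.

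**Figure D2:**
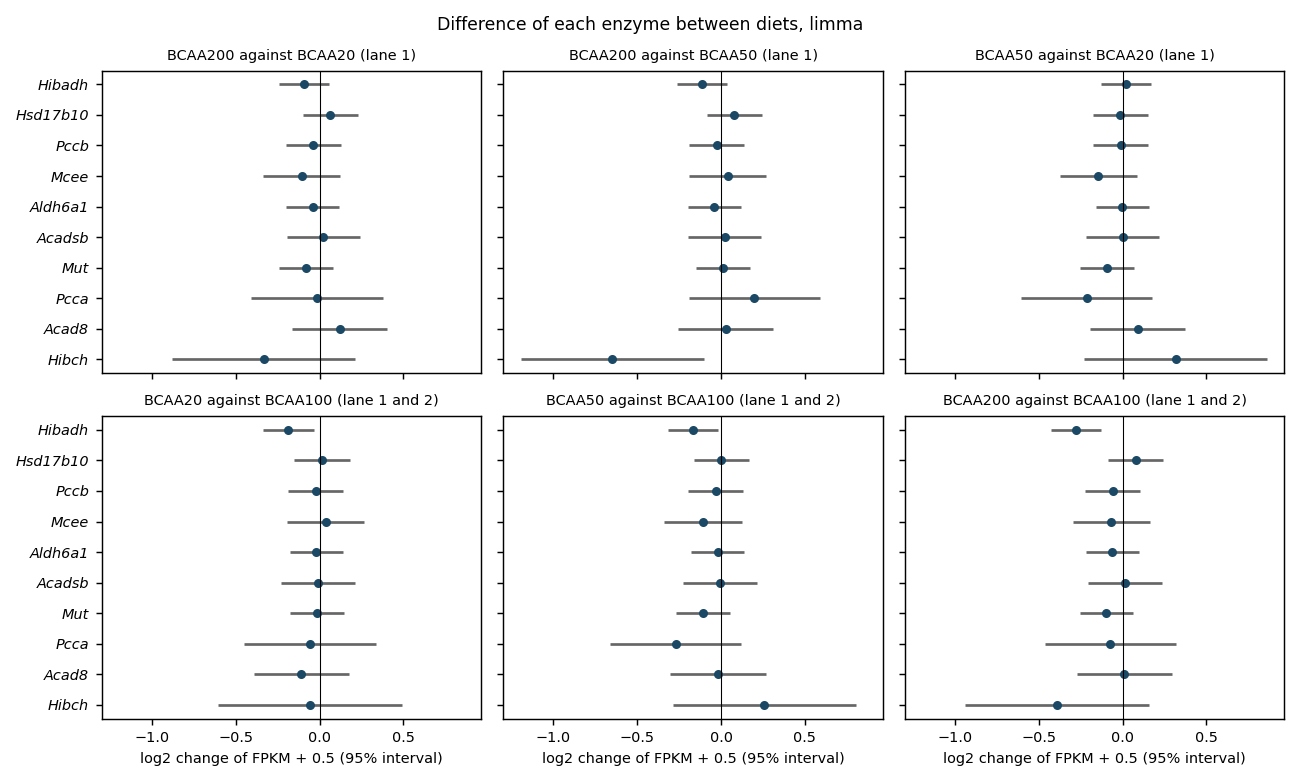
Log2 change of each enzyme (horizontal axis, log2 of FPKM + 0.5) for the 6 pairs of diets, as a point with its 95% interval from limma, with enzymes from the highest to the lowest mean level. Intervals of Hibadh lie below 0 in the 3 comparisons with BCAA100 and the interval of Hibch does so in BCAA200 against BCAA50; every other interval includes 0.

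The isoleucine arm is represented by Acadsb, which oxidises 2-methylbutyryl-CoA, and Hsd17b10, which oxidises the hydroxyacyl-CoA made from it. Hsd17b10 is also a part of mitochondrial ribonuclease P in human cells, and its gene is on the X chromosome. Acadsb stayed close to its mean on every diet, with 13.95 ± 1.85 FPKM in BCAA20, 13.96 ± 1.88 in BCAA50, 14.0 ± 1.65 in BCAA100 and 14.1 ± 1.60 in BCAA200 (SD, n = 6 each). Hsd17b10 averaged 20.6 ± 2.60 FPKM in BCAA20, 20.3 ± 1.82 in BCAA50, 20.3 ± 1.86 in BCAA100 and 21.5 ± 2.21 in BCAA200 (SD, n = 6 each). The diets overlapped for both genes. Acadsb (chromosome 7, 131410601 to 131448944, plus strand) lies inside the opposite-strand span of Fgfr2, a growth factor receptor gene at 10.2 FPKM, in GENCODE M21 on GRCm38. No source used here says how reads of overlapping genes were counted.

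The valine arm consists of Acad8, Hibch, Hibadh and Aldh6a1. Acad8 oxidises isobutyryl-CoA, Hibch releases coenzyme A from 3-hydroxyisobutyryl-CoA, Hibadh oxidises the free 3-hydroxyisobutyrate, and Aldh6a1 turns the resulting semialdehyde into propionyl-CoA. Acad8 averaged 7.10 ± 1.42 FPKM in BCAA20, 7.61 ± 1.61 in BCAA50, 7.66 ± 1.13 in BCAA100 and 7.76 ± 1.52 in BCAA200. Aldh6a1 averaged 14.4 ± 0.926 FPKM in BCAA20, 14.4 ± 1.23 in BCAA50, 14.6 ± 1.45 in BCAA100 and 13.98 ± 1.31 in BCAA200 (SD, n = 6 each). Neither gene separated any pair of diets.

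Hibadh and Hibch, and Hsd17b10 of the isoleucine arm, were the enzymes with the lowest unadjusted p in any comparison, and the bases before their annotated starts are shown for that reason. The windows are from RefSeq (GRCm38.p6), 5′ to 3′ on the gene's strand, cut so that they end before every annotated start. Capitals mark GGGCGG or its other strand CCGCCC (the core bound by SP1) and CCAAT or its other strand ATTGG (the CCAAT box). Hibadh is at chr6:52640390-52640550 on the minus strand, Hibch at chr1:52844788-52844928 on the plus strand and Hsd17b10 at chrX:152001646-152001844 on the plus strand.
Hibadh: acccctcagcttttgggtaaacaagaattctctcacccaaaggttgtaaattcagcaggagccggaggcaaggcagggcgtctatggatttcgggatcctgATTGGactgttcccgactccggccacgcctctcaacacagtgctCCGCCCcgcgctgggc
Hibch: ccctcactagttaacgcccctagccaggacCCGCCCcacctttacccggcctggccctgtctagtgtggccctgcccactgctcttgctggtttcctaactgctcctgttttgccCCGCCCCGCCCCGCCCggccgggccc
Hsd17b10: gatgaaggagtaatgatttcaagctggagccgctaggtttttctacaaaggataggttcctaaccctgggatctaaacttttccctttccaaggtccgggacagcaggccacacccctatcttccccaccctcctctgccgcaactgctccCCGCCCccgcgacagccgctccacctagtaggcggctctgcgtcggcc
The Hibch stretch holds 4 of the 6 GGGCGG matches of its whole window, 3 of them near its 3′ end, each sharing a base with the next, and no CCAAT box.

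Of the 10 enzymes, 9 have such a window, 11 windows in all, each of 250 bases before and 50 bases after a start, and Mut has none in the table used. GGGCGG was in 7 of 11 windows, against 35.66% of 32851 windows of all genes. CCAAT was in 8 of 11, against 37.41%, and TGCGCA (the NRF1 core, the same on both strands) in 2 of 11, those of Hibadh and Pccb, against 7.759%. TATAAA was in 0 of 11, against 13.62%, CCGGAAG (the ETS core) in 0 of 11, against 8.858%, and TCAAGGTCA (the element bound by estrogen-related receptors) in 0 of 11, against 0.4231%. Both strands were searched. These are matches of letters in short windows and not binding sites. The G and C content was 64.0% for Hibadh, 66.33% for Hibch and 57.67% for Hsd17b10, against a median of 52.67% over all windows.

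Hibadh, the 3-hydroxyisobutyrate dehydrogenase, was the enzyme with the lowest p between any pair of diets, which did not pass the adjusted threshold. On BCAA20 its lowest, median and highest levels were 25.3, 25.5 and 28.4 FPKM, on BCAA50 22.6, 26.7 and 30.7 FPKM, on BCAA100 27.3, 28.5 and 34.9 FPKM, and on BCAA200 22.9, 23.95 and 27.2 FPKM. The highest BCAA200 library, at 27.173 FPKM, lay just below the lowest BCAA100 library, at 27.284 FPKM, so these 2 diets did not overlap, while every other pair did. The log2 change in BCAA200 against BCAA100 was -0.28 (SE 0.0718), a ratio of 0.824 (95% interval 0.742 to 0.914), with an unadjusted p of 0.000998 and an adjusted p of 0.172 (limma). Hibadh was 1 of 10 enzymes with an unadjusted p under 0.05 in that comparison, against 11.7% of all genes tested.

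Against the same BCAA100 libraries, Hibadh differed by -0.19 (SE 0.0718, adjusted p 0.64) in BCAA20 and by -0.17 (SE 0.0718, adjusted p 0.63) in BCAA50, on the log2 scale in limma. It was again 1 of 10 enzymes with an unadjusted p under 0.05 in each, against 7.09% of all genes for BCAA20 and 7.65% for BCAA50. These 3 comparisons share their BCAA100 libraries. Of all genes tested, the share whose 6 and 6 libraries did not overlap was 0.565% in BCAA200 against BCAA100, where Hibadh was 1 of 10 enzymes. It was 0.369% in BCAA20 against BCAA100, 0.225% in BCAA50 against BCAA100, 0.145% in BCAA200 against BCAA20, 0.0869% in BCAA200 against BCAA50 and 0.116% in BCAA50 against BCAA20, with 0 of 10 enzymes in each. The median over all genes was -0.05 in BCAA200 against BCAA100 and the median over the enzymes -0.06, with 62.56% of all genes and 7 of 10 enzymes below 0.

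The high Hibadh libraries were those with little Slc17a7. The 3 libraries with Slc17a7 under 20 FPKM had the 3 highest Hibadh levels of all 24, at 34.9 and 33.4 FPKM in BCAA100 male replicates 6 and 5 and 30.7 FPKM in BCAA50 female replicate 1. The highest level among the other 21 libraries was 29.4 FPKM, also in a BCAA100 male. The BCAA100 females lay between 27.3 and 27.5 FPKM. Without the 4 libraries with a sex mismatch or little Slc17a7, the log2 change of Hibadh in BCAA200 against BCAA100 was -0.21 (limma adjusted p 0.390). With the level of cortex and hippocampus markers as a covariate it was -0.16 (limma adjusted p 0.511). In BCAA20 against BCAA100 these values were -0.12 and -0.08, and in BCAA50 against BCAA100 -0.14 and -0.08. Of the cortex and hippocampus markers, 7 of 7 measured were above 0 in each of the 3 diets against BCAA100, with median log2 changes of 0.93 for BCAA20, 0.84 for BCAA50 and 1.01 for BCAA200. Of the oligodendrocyte markers, 8 of 8 were below 0 in each, with medians of -0.30, -0.15 and -0.36. The covariate was fitted over all 24 libraries, with those of little Slc17a7 among them. Over the other 21, Hibadh with the cortex and hippocampus markers had r = -0.390 and rho = -0.362 (adjusted permutation p 0.259 and 0.349). The part of these markers in the difference of Hibadh was not tested beyond the covariate.

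**Figure D3:**
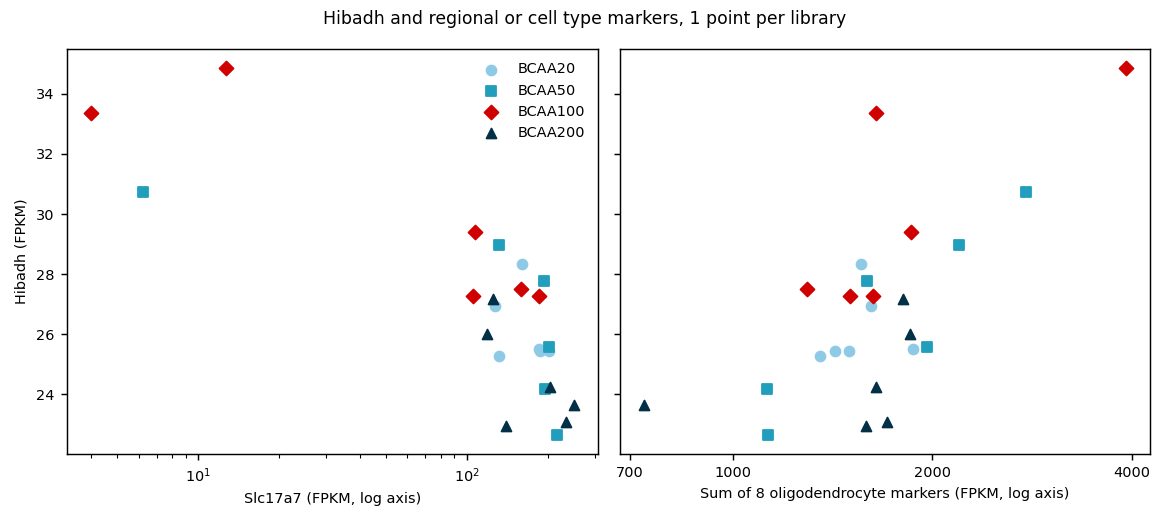
Hibadh (vertical axis, FPKM) against Slc17a7 (left, FPKM on a log axis) and against the sum of 8 oligodendrocyte markers (right, FPKM on a log axis), 1 point per library, with diets by colour and shape. The 3 libraries with Slc17a7 under 20 FPKM have Hibadh at 30.7, 33.4 and 34.9 FPKM, above all others.

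Hibch had the lowest level of the 10 enzymes and the widest spread, 6.54-fold between its lowest and highest library. Its lowest, median and highest levels were 1.85, 5.11 and 6.145 FPKM in BCAA20, 4.61, 5.56 and 7.08 FPKM in BCAA50, 2.065, 5.25 and 7.02 FPKM in BCAA100, and 1.08, 4.60 and 6.31 FPKM in BCAA200. In 4 libraries it was under 3 FPKM, with 1.082 and 1.740 FPKM in BCAA200 female replicates 2 and 3, 1.850 FPKM in BCAA20 male replicate 6 and 2.065 FPKM in BCAA100 female replicate 1, while the other 20 libraries had at least 3.82 FPKM. The log2 change in BCAA200 against BCAA50 was -0.65 (SE 0.261), with an unadjusted p of 0.0224 and an adjusted p of 0.9999 (limma). Those diets overlapped.

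Of the 4 libraries with Hibch under 3 FPKM, 3 were labelled female and 1 male. The 1 labelled male is BCAA20 male replicate 6, whose sex-linked genes go against its label. By these genes all 4 were female, with Xist between 112 and 154 FPKM. On BCAA200 the males had 5.33, 6.31 and 5.155 FPKM, and the females 4.045, 1.08 and 1.74 FPKM, and the sexes did not overlap. Hibch and Hsd17b10 were 2 of 10 enzymes without overlap between the sexes on that diet, against 10.3% of all genes tested. On BCAA20 the males had 5.69, 4.72 and 1.85 FPKM, and the females 5.495, 6.145 and 4.285 FPKM. On BCAA50 the males had 4.795, 4.609 and 6.942 FPKM and the females 7.078, 4.667 and 6.330 FPKM. On BCAA100 the males had 5.086, 7.019 and 6.176 FPKM and the females 2.065, 3.824 and 5.415 FPKM. The sexes overlapped on those 3 diets. By label, the mean was lower in males on BCAA20 and BCAA50 and higher in males on BCAA100. On BCAA20 the lowest male value is that of replicate 6, so the direction there rests on its label. Over all diets the log2 difference of males from females was 0.35 (SE 0.184, limma unadjusted p 0.0758, adjusted p 0.941). That value counts BCAA20 male replicate 6 as a male. Under the alternatives, which include leaving that library out, it ran from 0.26 to 0.45, with a limma adjusted p of at least 0.581. The difference between males and females in the change in BCAA200 against BCAA20 was 1.71 on the log2 scale (SE 0.521), with an unadjusted p of 0.00403 and an adjusted p of 0.9999 (limma sex by diet test). The lowest BCAA20 male is the library whose sex-linked genes go against its label, and without it the value was 1.285 (SE 0.480, adjusted p 0.9994).

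Hsd17b10 had the opposite pattern in the same test. On BCAA200 it was at 19.8 ± 0.0879 FPKM in males and 23.3 ± 1.81 FPKM in females, and on BCAA20 at 22.1 ± 2.06 FPKM in males and 19.1 ± 2.41 FPKM in females (SD, n = 3 each). The sex by diet value was -0.43 (SE 0.157), with an unadjusted p of 0.0126 and an adjusted p of 0.9999 (limma), and without BCAA20 male replicate 6 it was -0.36. Hibch and Hsd17b10 were 2 of 10 enzymes with an unadjusted p under 0.05 in this test, against 3.56% of all genes. Averaged over the diets, males differed from females by between -0.13 (Pcca) and 0.35 (Hibch) on the log2 scale, and 0 of 10 enzymes had an unadjusted p under 0.05, against 4.27% of all genes. Under the alternatives that count of enzymes was 0 or 1.

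The shared end of both arms consists of Pcca and Pccb, the subunits of propionyl-CoA carboxylase, the biotin-carrying alpha and the beta chain, of Mcee, the epimerase of methylmalonyl-CoA, and of Mut, the cobalamin-dependent mutase that makes succinyl-CoA. Pccb averaged 19.2 ± 1.65 FPKM in BCAA20, 19.1 ± 1.55 in BCAA50, 19.5 ± 1.55 in BCAA100 and 18.7 ± 2.07 in BCAA200. Mut averaged 9.73 ± 0.694, 9.13 ± 0.990, 9.86 ± 0.934 and 9.18 ± 0.662 FPKM on the 4 diets in that order. Mcee averaged 18.0 ± 2.33, 16.2 ± 2.23, 17.5 ± 1.47 and 16.8 ± 2.88 FPKM likewise (SD, n = 6 each). The diets overlapped for each of these 3 genes.

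Pcca was at 8.47 ± 1.19 FPKM in BCAA20, 7.71 ± 2.81 in BCAA50, 8.79 ± 0.881 in BCAA100 and 8.35 ± 1.03 in BCAA200 (SD, n = 6 each). The wide spread on BCAA50 came with 1 library, BCAA50 male replicate 6, which had 2.819 FPKM, while the other 23 libraries had 6.985 to 11.2 FPKM. That library had 20.2 FPKM of Pccb, within the range of the others. It also had the highest summed choroid plexus markers of the 24 libraries, at 699.4 FPKM, with 381.6 FPKM in the next, BCAA200 male replicate 6, where Pcca was at 8.11 FPKM. Pcca with the choroid plexus markers had r = -0.591 and rho = 0.0078 (adjusted permutation p 0.124 and 0.982, n = 24), and r = 0.131 without the 2 farthest libraries. The part of these markers in the low Pcca was not tested. Pcca (chromosome 14, 122534324 to 122891100, plus strand, GENCODE M21 on GRCm38) overlaps Ggact on the opposite strand, which was at 15.7 FPKM.

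Because both subunits form 1 enzyme, their ratio was compared between diets. Pcca over Pccb in FPKM was 0.441 ± 0.0537 in BCAA20, 0.406 ± 0.141 in BCAA50, 0.452 ± 0.0535 in BCAA100 and 0.448 ± 0.0591 in BCAA200 (SD, n = 6 each). No pair of diets differed (exact permutation test of the mean log2 ratio, two-sided, p between 0.569 and 0.881 over the 6 pairs, 0.881 for each after adjustment). In BCAA50 male replicate 6 the ratio was 0.1398. The difference in log2 ratio was 0.25 in BCAA200 against BCAA50, -0.23 in BCAA50 against BCAA20 and -0.27 in BCAA50 against BCAA100, and without that library these were -0.03, 0.06 and 0.02.

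The relation to BCAA intake added nothing past the threshold. Intake, in a unit that is not stated, averaged 0.417 in BCAA20, 1.01 in BCAA50, 2.12 in BCAA100 and 5.26 in BCAA200, and formed a separate cluster for each diet, so no correlation coefficient over all animals was computed here. The authors' deposited table gives a Pearson R with intake between -0.249 (Hibch) and 0.179 (Acad8) over the 10 enzymes, with unadjusted p between 0.241 and 0.997. In limma the slope per doubling of intake within lane 1 was between -0.12 (Hibch) and 0.03 (Acad8) on the log2 scale, with 0 of 10 enzymes under an unadjusted p of 0.05, against 3.19% of all genes. Over all 4 diets, where the slope runs across these clusters and both lanes, the counts were 0 of 10 against 2.23%, and within groups, where animals of 1 diet and sex are compared with each other, 0 of 10 against 3.03%.

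Levels of some pairs of enzymes moved together over the libraries. The matching shares over pairs of all genes tested were not computed, so the counts below are not shown to be particular to these enzymes. Of 45 pairs, 32 had a Pearson r above 0, and 2 passed adjustment over the pairs: Pccb with Mut (r = 0.599, Spearman rho = 0.551) and Aldh6a1 with Mut (r = 0.595, rho = 0.563), both with an adjusted permutation p of 0.0468 for r and 0.0852 for rho (n = 24). Without the 2 libraries farthest from the median of the first gene, r was 0.675 and 0.355 for these pairs. Within lane 1 (n = 18) they were 0.509 and 0.514, and 0 of the 45 pairs passed. The lowest values were those of Hsd17b10 with Hibch (r = -0.538, rho = -0.362) and with Aldh6a1 (r = -0.487, rho = -0.386), with adjusted permutation p of 0.0843 for r and 0.220 for rho.

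Some enzymes were related to markers of glia or thalamus. Of 110 relations between 10 enzymes and 11 marker lists, each list taken as its mean log2 level, 8 passed adjustment by permutation for r, and 2 of these also for rho. Hibadh was related to the oligodendrocyte markers (r = 0.717, rho = 0.641, adjusted permutation p 0.0055 and 0.0484, n = 24), with r = 0.592 without the 2 farthest libraries and 0.666 within lane 1. Pccb was related to astrocyte markers (r = 0.652, rho = 0.649, adjusted permutation p 0.0132 and 0.0484), with r = 0.501 without the 2 farthest libraries and 0.606 within lane 1. The other 6 were Aldh6a1 and Mut with astrocyte markers, Pccb and Mut with oligodendrocyte markers, and Pccb and Mut with thalamic markers, with r between 0.627 and 0.666 and adjusted permutation p for rho above 0.05. For Mut with oligodendrocyte markers rho was 0.290 and r fell to 0.336 without the 2 farthest libraries, so that relation rests on them. The r of the other relations among these 6 fell as well, to between 0.4075 (Aldh6a1 with astrocyte markers) and 0.4804 (Pccb with thalamic markers). With the hypothalamic markers r was between -0.009 (Pcca) and 0.230 (Acadsb). Without the 2 farthest libraries it was between -0.056 (Hsd17b10) and 0.611 (Mut), and within lane 1 between -0.206 (Hsd17b10) and 0.674 (Mut). With cortex and hippocampus markers it was between -0.604 (Mut, adjusted permutation p 0.0544, n = 21) and 0.172 (Hsd17b10). Points share their library and its scaling. The share of all genes tested that would pass with the same lists was not computed, so these relations are not shown to be particular to the enzymes.

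**Figure D4:**
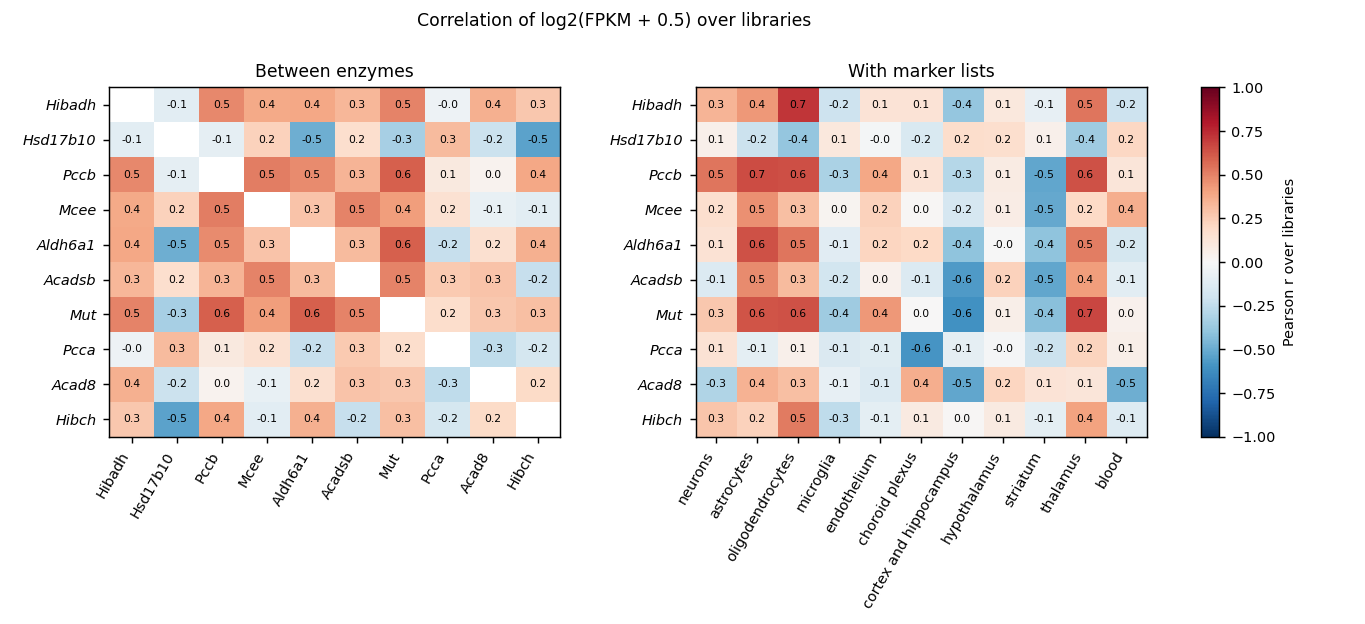
Pearson r of log2(FPKM + 0.5) over libraries, between the 10 enzymes (left) and between each enzyme and the level of 11 marker lists (right; 24 libraries, 21 for cortex and hippocampus), from blue at -1 to red at 1. Mut, Pccb and Aldh6a1 form positive pairs, and Hsd17b10 has its lowest values with Hibch (-0.538) and Aldh6a1 (-0.487).

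For each enzyme the genes most alike were sought among all genes tested, after subtraction of the 8 group means, over 24 libraries. Pccb was most like Snrpb (r = 0.932) and Ctdsp1 (0.909), and Mut most like Steap2 (0.920) and Zcchc24 (0.908). Hsd17b10 was most like Kif1bp (0.876) and Smu1 (0.825). Hibadh was most like Maob (0.873), the monoamine oxidase found in astrocytes and serotonergic neurons, and Ttc9 (0.872), and the r of Aldh6a1 with Slc16a1, a monocarboxylate transporter, was 0.852. Acadsb was most like Scoc (0.857) and Laptm4a (0.855), Mcee most like Aig1 (0.858) and Rhoa (0.832), and the r of Pcca with Tmod3 was 0.846. Acad8 was most like Zfp280d (0.846) and Nfatc2 (0.779), and Hibch most like Abhd17b (0.785) and Med13l (0.760). These are among the highest of 13806 values for each enzyme and carry no test.

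The rest of the pathway was measured in full and gave no adjusted call either. It was grouped into 8 BCAA entry steps, 8 enzymes of the leucine branch, 8 shared beta-oxidation steps, 14 genes of cofactor supply and 16 of succinyl-CoA use and the TCA cycle. In BCAA200 against BCAA20, 0 genes of any of these lists had an unadjusted p under 0.05. The lowest unadjusted p was that of Bckdhb, a subunit of the branched-chain ketoacid dehydrogenase, at 10.07 ± 0.978 FPKM in BCAA200 and 7.34 ± 5.49 FPKM in BCAA20 (SD, n = 6 each; log2 change 1.17, SE 0.598, limma unadjusted p 0.0659). Next was Echs1, the enoyl-CoA hydratase that serves both the valine and the isoleucine arm, with a log2 change of -0.17. The other genes taken by the rule for that comparison, Ppm1k, Sdha, Mccc2, Hadh, Suclg2, Oxct1, Etfa and Mmadhc, had log2 changes between -0.19 (Ppm1k) and 0.09 (Mccc2).

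In BCAA200 against BCAA100 the lists lay mostly below 0, in a comparison in which 62.56% of all genes did so. Below 0 were 8 of 8 entry steps, 6 of 8 genes of the leucine branch, 8 of 8 beta-oxidation steps, 11 of 14 of cofactor supply and 14 of 16 of the TCA cycle list. Their median log2 changes were -0.11, -0.15, -0.18, -0.07 and -0.11, against -0.05 over all genes. With an unadjusted p under 0.05 there were 0, 2, 3, 1 and 6 genes in these lists, all lower in BCAA200, against 11.7% of all genes. That 11.7% pools both directions, with 1038 genes lower and 580 higher in BCAA200. Echs1 was at 17.8 ± 1.94 FPKM in BCAA200 and 23.5 ± 2.42 FPKM in BCAA100 (SD, n = 6 each; log2 change -0.39, SE 0.0899, limma adjusted p 0.142). Mccc2, a leucine branch carboxylase subunit, had a log2 change of -0.28, Etfa, which takes electrons from Acadsb and Acad8, one of -0.33, and Sucla2 and Sdha, enzymes that handle succinyl-CoA and succinate, each one of -0.19. Acat1, Ivd, Bcat1, Abcd4 and Ppm1k had log2 changes between -0.45 (Bcat1) and -0.20 (Acat1), and adjusted p were between 0.142 and 0.506 for these 10 genes (limma). These values share the BCAA100 libraries, their lane and the marker differences given with Hibadh.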

How the data were processed

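The authors deposited FPKM for each gene symbol in each library. TopHat2 2.0.14, StringTie 1.2.4 and GRCm38 are named in the submitters' processing notes, with no role or order, and no source used here gives the annotation release. The authors also deposited the BCAA intake of each animal (unit other, not stated), a Pearson R of each gene with intake and its unadjusted p-value. All columns were matched to a library or a statistic. Read depth is unknown, and columns summed to between 293850 and 328809 FPKM. Each library is 1 animal, per the design text, so p-values measure the spread between animals.

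Values were taken as log2(FPKM + 0.5), which understates changes of low genes, for genes averaging 1 FPKM or more. The limma package (3.58.1, in R 4.3.3) fitted 8 group means, with mean-variance trend and robust moderation. That fit had 16 residual degrees of freedom, and diet contrasts averaged the sexes. Slopes on intake in lane 1 and over 4 diets were separate fits of intake and sex, without diet groups. The slope within groups added intake to the 8 group means. Correlation and ratio tests used scipy 1.17.1 in Python 3.11.15, with 1e+05 resamples for permutation p. The script was tested on simulated data. Alternatives were other pseudocounts, filters, scalings, library weights, a replicate block, a cortex marker covariate, and leaving out libraries.

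The members and lists were chosen with earlier results of these data known. All 10 members are named. The text also names, from each other pathway list, the 2 genes with the lowest unadjusted p in BCAA200 against BCAA20 and in BCAA200 against BCAA100, and the 2 genes most alike to each member, leaving out predicted genes; 2 genes that this rule takes are not reported here. Relations to marker lists were added after seeing the data. Motif matches were counted in RefSeq windows.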

Additional observations from a re-analysis of the deposited data

Results flagged for a closer look

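Acad8 in BCAA20 female replicate 3 was at 9.868 FPKM, the highest of its 6 BCAA20 libraries, with a gap to the next library of 0.697 of the whole range. Mut in BCAA100 male replicate 6 was at 11.64 FPKM, the highest of its 6 BCAA100 libraries, with a gap of 0.644 of the range. Both gaps exceed Dixon's 95% critical value for 6 values. They are 2 of 40 groups tested, and chance marks about 1 in 20 groups. The library with the high Mut is 1 of the 3 with little Slc17a7 and has the highest oligodendrocyte marker sum, at 3922 FPKM.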

How the results depend on the processing

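The number of enzymes past an adjusted p of 0.05 was 0 in all 12 comparisons and under all alternatives that were run, 415 counts in all. Of 4138 log2 changes of single enzymes under alternatives, 3864 kept their sign and 274, none of them called, changed it. Part of the 3864 could not change, so this count overstates how stable the values are. A log2 change between diets stays as it was under another filter or the balanced replicate block. The same holds when a library of a diet outside the comparison is left out. Same-numbered replicates deviated together little (r between -0.29 and 0.27 over 36 pairs, 6 of them above 0.1), and the main fit did not pair them. Differently numbered replicates were not set beside them, so this cannot exclude a pairing. With a replicate block 0 enzymes passed, and males against females was left out of that alternative. The block cannot move the log2 change of -0.28 of Hibadh in BCAA200 against BCAA100, and its limma adjusted p was 0.214. Leaving out single libraries moved the Hibadh value between -0.31 and -0.25, and its adjusted p ran from 0.0687 to 0.511 over all alternatives. Hibch fell out under the filter at 5 FPKM. Of all genes, 2 were called in BCAA200 against BCAA100, with 41 once BCAA50 female replicate 1 was left out. The count was 49 without all the libraries with a sex mismatch or little Slc17a7, and 0 with the block or the cortex covariate. Of the correlated pairs of enzymes, 0 passed within lane 1, which has fewer libraries. With single libraries left out, the difference in log2 Pcca to Pccb ratio ran from -0.029 to 0.074 in BCAA200 against BCAA20, from -0.035 to 0.34 in BCAA200 against BCAA50, from -0.32 to 0.055 in BCAA50 against BCAA20, from -0.085 to 0.020 in BCAA20 against BCAA100, from -0.36 to 0.019 in BCAA50 against BCAA100 and from -0.054 to 0.040 in BCAA200 against BCAA100, with no call. FPKM without depth limits how far low levels such as Hibch can be read.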
